A study of Drosophila melanogaster with 46 samples.

Results

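Chromatin accessibility, read by Tn5 insertion into exposed DNA (ATAC-seq), was profiled in eye-antennal discs of Drosophila melanogaster. The libraries described here were chosen by their measured level at 1 marker region, chr2L:17560215-17560935 on dm3, in log2 CPM (counts scaled to the library total, on the log2 scale, with a prior count of 2). Of the 31 DGRP libraries with counts, 11 lay above 5 log2 CPM there and form the high group, 18 lay below 4 and form the low group, and 2 lay between and were left out. The whole series has 46 samples, and the other 15 were not analysed here. The marker was picked because it follows the main component of these same libraries. The differences between the groups are therefore a description, with no test.

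An eye-antennal disc is a folded epithelial sac of the larva that forms the eye, the antenna and much of the head. A disc cell keeps open the promoters and enhancers it uses or may soon use, while enhancers for other body parts, other cell types or later stages are mostly closed. Selector genes of the Hox, eye and antennal groups decide what a disc becomes, and pulses of the steroid hormone ecdysone time its development.

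Every library came from discs dissected by hand from larvae in the wandering stage of the last instar and lysed at once, and each line is an inbred strain of the Drosophila Genetic Reference Panel (DGRP). The high group holds the single libraries of DGRP_25174, DGRP_25187, DGRP_28153 and DGRP_29651, both libraries of DGRP_28275, replicate 1 of DGRP_25208, DGRP_28265, DGRP_29652 and DGRP_55031, and replicate 2 of DGRP_28260. The low group holds the other library of each of these last 5 lines and both libraries of DGRP_28123 and DGRP_28262. It also holds the single libraries of DGRP_25185, DGRP_25193, DGRP_25194, DGRP_25199, DGRP_28202, DGRP_28206, DGRP_28222, DGRP_28243 and DGRP_55026. The labels do not say how many animals went into a library or whether a line's libraries came from separate dissections, so spreads here may be technical. In a whole disc, more cells with an open region and more open chromatin per cell cannot be told apart.

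At the marker the low group ran from 1.43 log2 CPM through a median of 2.73 to 3.70, on 8 to 93 reads. The high group ran from 5.79 through 6.71 to 7.66, on 224 to 1407 reads. The members nearest the limits were DGRP_28153 at 5.79 and DGRP_28222 at 3.70, and the libraries just outside were DGRP_25186 at 4.87 and DGRP_28224 at 4.01.

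**Figure D1:**
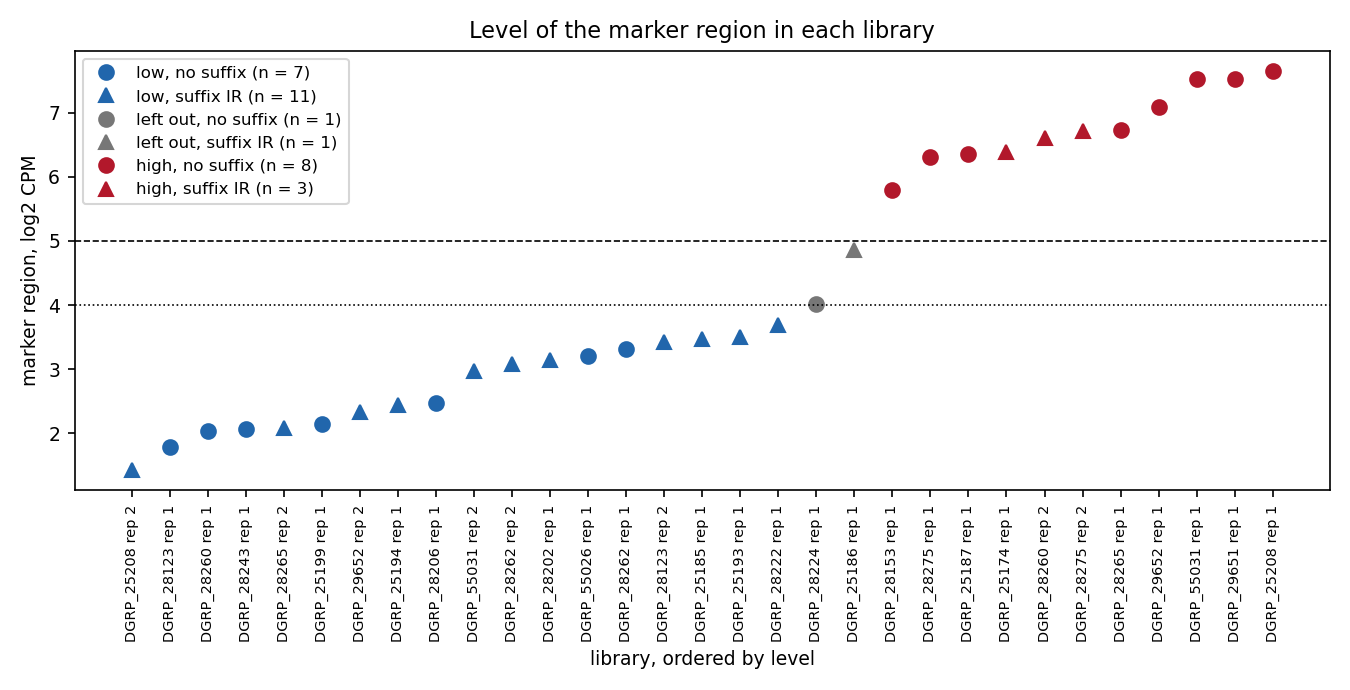
Level of the marker region (log2 CPM) in each of 31 libraries, ordered by level, with circles for libraries without the title suffix IR and triangles for those with it. The dashed line is the limit of the high group at 5 and the dotted line that of the low group at 4, and only the libraries of DGRP_25186 and DGRP_28224 lie between them.

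Library totals ranged from 1110755 to 10542406 counts in the high group and from 2647425 to 12758783 in the low group. The mean log2 total differed by -0.16 (high minus low), within the spread between libraries (SD 0.88 and 0.63, n = 11 and 18, two-sided permutation p = 0.568, adjusted p = 0.568 over 2 tests). Some library titles carry the suffix IR after the line's number, which the labels do not explain. In lines with 2 libraries, replicate 2 here is the library with the suffix, as these titles give no replicate number. This suffix stood on 3 of 11 high libraries (27.3%) and 11 of 18 low ones (61.1%), a difference that did not pass (two-sided Fisher's exact p = 0.128, adjusted p = 0.256 over 2 tests). Both tests took the libraries as independent. Yet each of the 8 lines with 2 libraries gave a library with the suffix and a library without it. The p-values ignore this pairing and are only a rough guide. The part of the suffix in the results below was not tested beyond the values within suffix. The ratio of mean counts per region on X to those on the large autosomal arms was 0.923 ± 0.105 (SD) in the high group and 0.943 ± 0.107 in the low group, so the groups overlapped widely in it.

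Many regions were more open in the high group and very few were less open. Of the 30773 other regions, 5542 were at least 2-fold higher in the high group, or 18%, and 11 were at least 2-fold lower, or 0.0357%. At 4-fold or more, 1121 regions were higher (3.64%), and at 8-fold or more 35 were (0.114%). In 2088 regions (6.79%) every high library lay above every low library, and in 5 regions (0.0162%) every high library lay below. The median difference over all regions was -0.04 on the log2 scale. With TMM scaling that median was -0.17, a shift of -0.13, and 5002 regions were higher and 28 lower. The count of lower regions depended most on the setting, with 145 from the fold fitted by edgeR, 101 in the mean within 5 lines and 22 without the library of DGRP_25187.

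**Figure D2:**
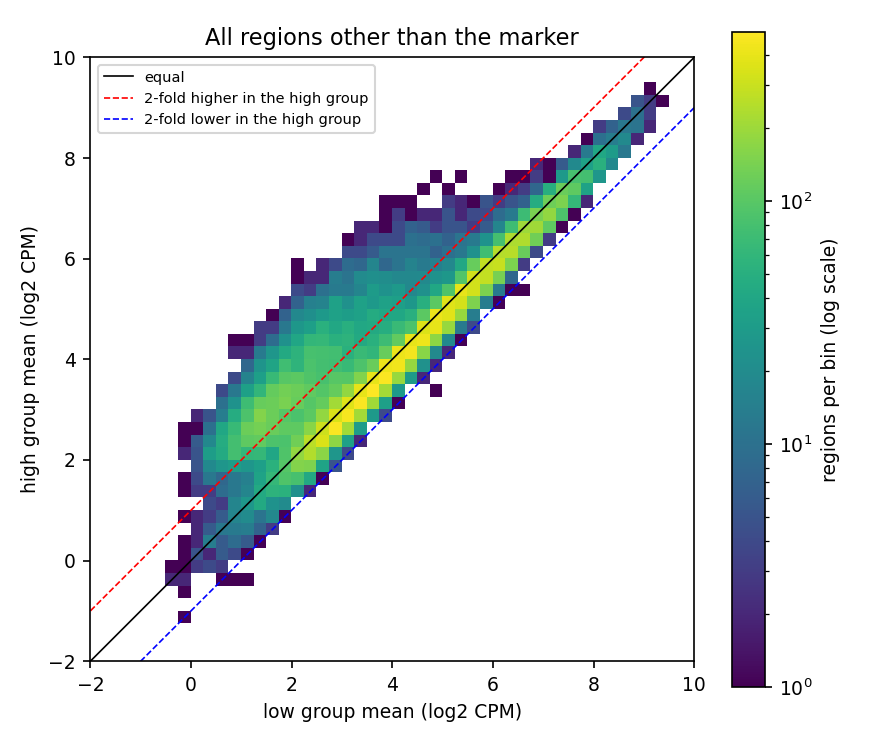
Mean level in the low group (x axis, log2 CPM, 18 libraries) against the high group (y axis, log2 CPM, 11 libraries) for the 30773 regions other than the marker, with colour for the number of regions per bin on a log scale. Most regions lie along the line of equal levels, 5542 lie on or above the 2-fold line, most of them at low levels of the low group, and 11 regions lie below the lower line.

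The regions that were higher were mostly little open in the low group. Their median level was 8.99 CPM per kb in the low group and 29.3 in the high group, where regions under 2-fold had medians of 36.5 and 34.3. With the regions ordered by openness in the low group and cut into 4 equal classes, 62.9% of the least open class were higher (4839 of 7694), against 0.130% of the most open class (10 of 7693). The low level is part of the difference itself, so a link of this kind arises in part by construction. Sorted by the high group's level in place of the low group's, the shares were 16.3%, 26.6%, 20.1% and 9.03% from the least to the most open class. Higher regions had a median length of 421 bp, against 466 bp for those under 2-fold.

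Higher regions had higher neighbours. For 50.1% of them the nearest region was also higher, against 10.9% for regions under 2-fold. The large arms were alike, from 16.5% higher on 2R to 19.1% on both 2L and 3R, with 18.7% on 3L and 16.7% on X. Chromosome 4 had 8.10%, or 20 of 247 regions. In 1154 stretches of 100 kb with at least 10 regions each, the median share was 15.4%, 119 stretches held no higher region, and in 76 at least 50% of the regions were higher. The stretch with the highest share was 3L from 17100001 to 17200000, where 20 of 23 regions were higher. On X from 20400001 to 20500000 the count was 11 of 13.

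The marker's own stretch stood at rank 3, with 18 of 22 other regions higher. Within 50 kb on either side of the marker, 19 of 23 regions were at least 2-fold higher (background 18%), and in 15 of them the groups did not overlap (background 6.79%). The closest neighbour on one side, 2L from 17559091 to 17559804, ran from 2.50 through 3.65 to 4.70 log2 CPM in the low group and from 4.93 through 5.89 to 6.85 in the high group. The region with the largest difference after the marker itself lay in the same stretch, on 2L from 17588220 to 17588690. It ran from 1.13 through 2.25 to 3.00 in the low group and from 4.76 through 6.05 to 6.51 in the high group, a difference of 3.66 with no overlap. A region amid them, 2L from 17565538 to 17566458, was open in all libraries and differed by only 0.64, from 4.65 to 6.53 in the low group and from 5.67 to 6.75 in the high group. On 2L from 17517119 to 17517507 and from 17592099 to 17592386, the differences were -0.45 and -0.43, with overlapping groups.

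**Figure D3:**
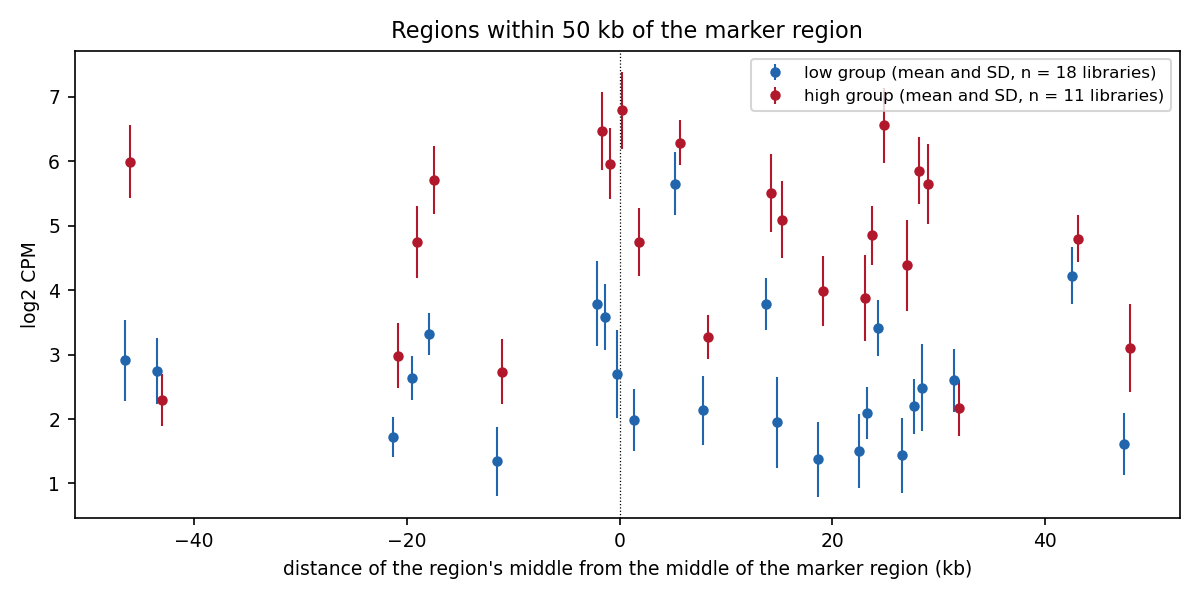
Mean and SD of log2 CPM in the low group (18 libraries) and the high group (11 libraries) for the marker and the 23 regions within 50 kb of it, by distance from the marker's middle in kb, with the groups' points set slightly apart sideways. In 19 of the 23 regions the high group is at least 2-fold higher, and 2 regions have a slightly lower mean in the high group.

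The other regions with the largest differences were on several arms. Apart from the one beside the marker, 2L from 5446151 to 5446769 differed by 3.46, 3R from 6193760 to 6194504 by 3.34 and 3L from 1648585 to 1649205 by 3.29. The other 6 of the 10 differed by 3.21 to 3.34. All 10 were chosen as having groups that do not overlap. The 5 regions whose levels were most like the marker's over the 31 libraries had Pearson's r from 0.98 to 0.99, a description over libraries that share the same ordering. They were 2L from 17513710 to 17514923, 2L from 17588220 to 17588690, 3R from 14843057 to 14843974, 3R from 6193760 to 6194504 and 3L from 1648585 to 1649205.

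The 38 listed loci held 1085 regions, of which 149 were higher (13.7%, background 18%) and none was lower at 2-fold. The Hox loci, which hold the homeobox genes of segment identity, had 43 higher regions of 200 (21.5%), with a median difference of 0.03. The loci of antennal and head genes had 46 of 235 (19.6%, median -0.09). Both shares lay near the background, so neither group of loci stood out by its count. The wing and limb loci had 25 of 239 (10.5%, median -0.19), the eye loci 9 of 91 (9.89%, median -0.09) and the ecdysone loci 15 of 180 (8.33%, median -0.07). No region of 77 was higher in the loci of Notch and the proneural genes (median -0.17).

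The loci differed in how open they already were in the low group, and the part of this in their shares was not tested. The median region of the Hox loci had 23.6 CPM per kb there, that of the antennal and head loci 29.97 and that of all other regions 29.5. For the wing and limb loci it was 35.7, for the eye loci 47.6, for the ecdysone loci 54.4 and for the Notch and proneural loci 63.0. Among regions of the least open class, where 62.9% of all were higher, the Hox loci had 37 of 71 (52.1%), the antennal and head loci 39 of 53 (73.6%) and the wing and limb loci 18 of 26 (69.2%). In that class the eye loci had 8 of 12 higher, the ecdysone loci 9 of 17 and the Notch and proneural loci 0 of 2.

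**Figure D4:**
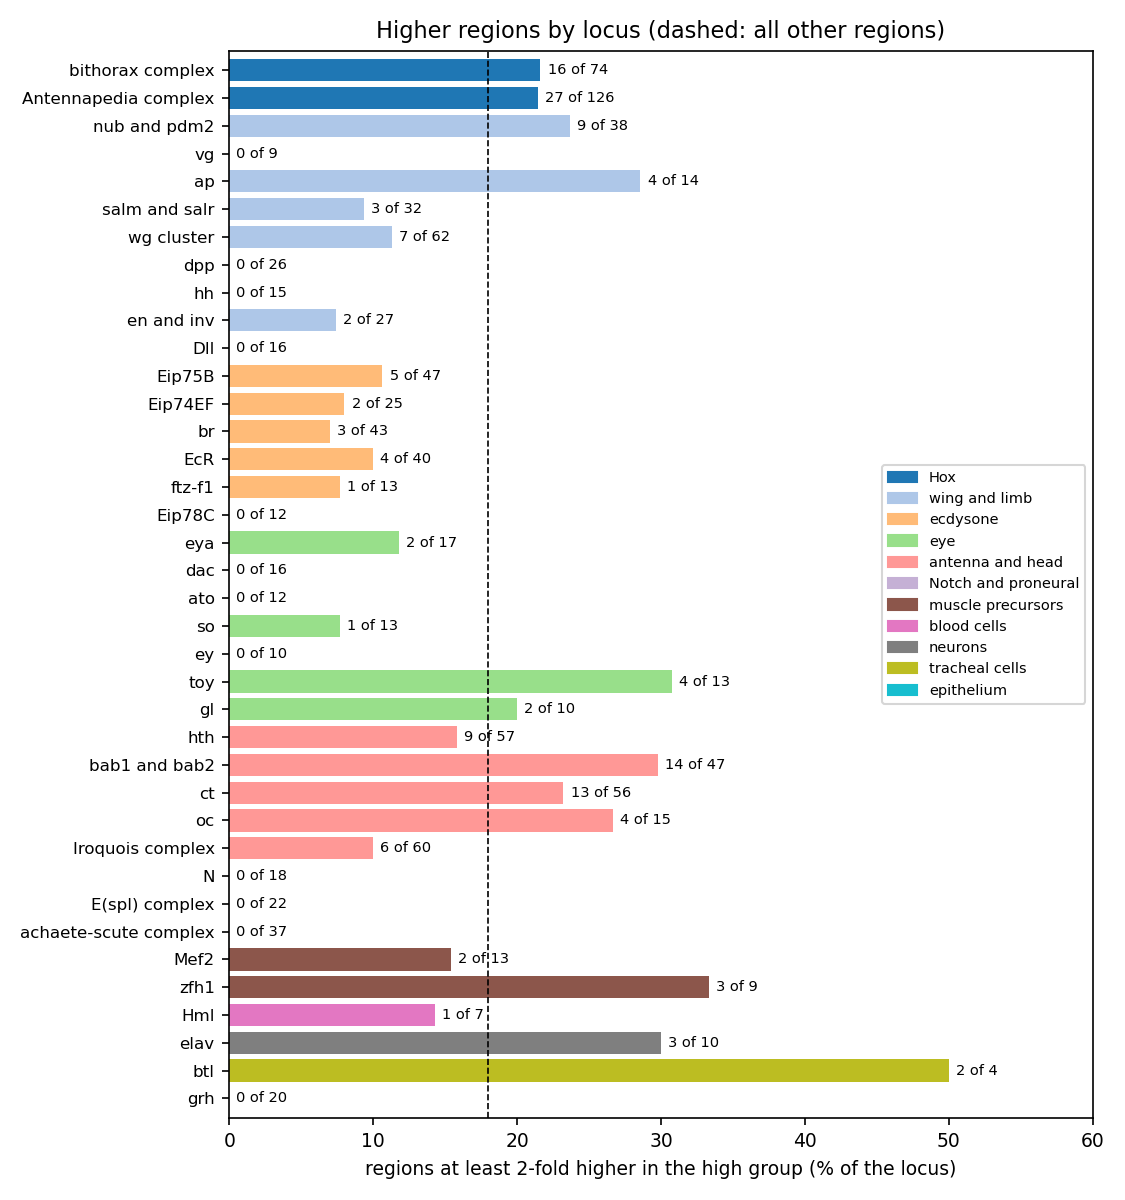
Share of the regions in each listed locus that were at least 2-fold higher in the high group (bars, %, with counts beside them), coloured by list. The dashed line is the share of all other regions, 18%, with the bithorax complex at 16 of 74 and dpp, hh, N and the E(spl) complex at 0.

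The bithorax complex holds Ubx, abd-A and Abd-B, which set the identity of the posterior thorax and abdomen. Of its 74 regions 16 were higher (21.6%, background 18%), the first at 12497974 and the last ending at 12809174 on 3R. This share lay near the background. In 12 of the 16 the groups did not overlap, where 37.1% of all higher regions had no overlap. At least 4-fold higher were 9 of the 16, and 1121 of all 5542 higher regions. The region with the largest difference, on 3R from 12609668 to 12610168, ran from -0.14 through 2.01 to 2.71 log2 CPM in the low group and from 3.81 through 4.86 to 5.56 in the high group. Every high library thus lay above every low one, and the means differed by 2.98. Its mean count was 24.3 in the low group and 175 in the high group. The median difference over the complex was -0.02. The 16 regions were picked by the 2-fold threshold, so the size of their differences is in part fixed by it.

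The Antennapedia complex holds lab, pb, Dfd, Scr, ftz and Antp, for the head and anterior thorax. It had 27 higher regions of 126 (21.4%, background 18%), of which 7 were at least 4-fold higher. The groups did not overlap in 12. Both counts were near the shares among all higher regions, of which 37.1% had no overlap and 1121 of 5542 were at least 4-fold higher. On 3R from 2678761 to 2679061 the low libraries ran from -0.41 through 0.89 to 2.06 and the high libraries from 3.03 through 4.16 to 5.06, a difference of 3.34 with a mean count of 11.6 against 116. This was also among the 10 largest differences of the regions whose groups do not overlap. Neither complex held a region that was 2-fold lower.

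Among the wing and limb loci, those of nub and pdm2, ap, salm and salr, the wg cluster, and en and inv held higher regions. Their shares ran from 7.41% at en and inv to 28.6% at ap, around the background of 18%. For the POU-domain genes nub and pdm2 the count was 9 of 38, and 2L from 12681539 to 12682497 went from 2.75 through 3.65 to 4.53 in the low group and from 4.52 through 5.75 to 6.62 in the high group. These groups touched at their edges. At ap, the LIM-homeobox gene of dorsal wing identity, 4 of 14 regions were higher. The groups did not overlap in any of the 4, where 37.1% of all higher regions had no overlap. The largest, on 2R from 1628968 to 1630314, ran from 4.02 through 4.63 to 5.07 against 5.30 through 6.65 to 7.41.

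At the zinc-finger genes salm and salr 3 of 32 regions were higher (9.38%, background 18%). One of them, 2L from 11456766 to 11457270, had a difference of 3.17, from -0.23 through 1.06 to 2.13 in the low group against 3.00 through 4.11 to 5.11, with no overlap. The wg cluster, which holds 4 Wnt ligand genes, had 7 of 62 (11.3%). Its largest difference, on 2L from 7362869 to 7363415, was 2.57, and the low libraries (2.06 to 3.42) all lay below the high ones (4.62 to 5.96). The segment polarity genes en and inv had 2 of 27 (7.41%), with 2R from 7383932 to 7384338 at 1.07 to 2.64 against 3.08 to 4.96.

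No region was higher by 2-fold at dpp (26 regions), hh (15), Dll (16) or vg (9), beside a background of 18%. The ligands Dpp and Hedgehog act at the morphogenetic furrow of the eye disc, and Dll patterns the antenna and legs. The largest difference at dpp was negative, -0.58 on 2L from 2480313 to 2481046, where the low group ran from 5.73 through 6.24 to 7.07 and the high group from 5.13 through 5.68 to 6.20. The groups overlapped there, as they did at hh, where the largest difference was -0.43. Loci of both ligands were well open in the low group, with medians of 71.1 and 62.8 CPM per kb.

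The ecdysone loci held from 0 to 5 higher regions each, at most 10.6% of a locus, below the background of 18%. Eip75B, a nuclear receptor gene induced by the hormone, had 5 of 47. There 3L from 18058536 to 18059120 ran from 3.34 through 4.01 to 4.93 in the low group and from 4.51 through 6.04 to 6.41 in the high group, a difference of 1.91 with a small overlap. EcR, the gene of the ecdysone receptor itself, had 4 of 40, and 2R from 1991267 to 1992066 ran from 3.64 through 4.21 to 4.73 against 5.21 through 6.05 to 6.72 with no overlap. The ETS gene Eip74EF had 2 of 25 with a largest difference of 1.60, and br, a zinc-finger gene of metamorphosis, 3 of 43 with a largest of 1.40. The orphan receptor gene ftz-f1 had 1 of 13, at 1.09. Eip78C had none of 12, and its most divergent region, open at 8.04 to 8.82 in the low group, differed by -0.33.

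In the eye loci the regions with large differences were few. Only toy (30.8%) and gl (20%) had shares of higher regions above the background of 18%. The early retinal genes eya and so had 2 of 17 and 1 of 13. At eya, which codes for a phosphatase and coactivator, 2L from 6540927 to 6541297 ran from 1.14 through 2.03 to 2.93 against 3.08 through 4.16 to 4.96. At so, a homeobox gene and partner of eya, 2R from 3326930 to 3327469 ran from 2.45 through 2.80 to 3.69 against 3.86 through 4.78 to 5.63. The groups did not overlap at either. The Pax6 genes toy and ey, on chromosome 4, had 4 of 13 and 0 of 10, and the photoreceptor gene gl had 2 of 10, with a largest difference of 2.07. At dac and at the proneural gene ato no region of 16 and of 12 was higher, and every difference at ato was below 0, down to -0.61.

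The eye and antennal loci held strongly open regions in both groups. Their most open regions were at 241 CPM per kb in the low group and 230 in the high group for the eye loci, and at 447 and 435 for the antennal and head loci. Medians over all regions were 29.5 and 32.9. The most open regions of the Hox loci reached 467 and 455 CPM per kb and those of the wing and limb loci 431 and 373, so these levels do not tell the labelled tissue from others.

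The share of higher regions in the single antennal and head loci ran from 10% to 29.8%, around the background of 18%. Whether the loci differ in it was not tested. At bab1 and bab2, BTB genes that pattern the distal segments of antenna and leg, 14 of 47 were higher (29.8%), and at ct, a homeobox gene of the antenna and sense organs, 13 of 56 (23.2%). The largest at the former, 3L from 1078094 to 1079031, ran from 1.74 through 2.44 to 3.27 in the low group and from 3.49 through 4.79 to 6.20 in the high group. For ct, X from 7497138 to 7497526 ran from 1.14 through 2.12 to 2.84 against 3.91 through 4.68 to 5.45. The groups did not overlap at either.

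Around hth, the cofactor gene that selects antennal fate, 9 of 57 were higher, and 3R from 6396853 to 6397441 differed by 2.32 with low libraries at 2.65 to 4.12 and high ones at 4.34 to 6.39. The Iroquois complex, with the dorsal eye genes ara, caup and mirr, had 6 of 60 (10%, background 18%). Its strongest site, 3L from 12635365 to 12635910, ran from 1.43 through 2.05 to 3.05 against 4.38 through 5.14 to 5.73. The head gap gene oc had 4 of 15, with a largest difference of 2.13.

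At the loci of N, the Notch receptor, the E(spl) complex of its bHLH target genes and the proneural achaete-scute complex, 0 of 18, 0 of 22 and 0 of 37 regions reached 2-fold. Over all other regions 18% did so. In 1 of the 22 regions of the E(spl) complex every high library lay above every low one, against 6.79% of all other regions. It was 3R from 21857702 to 21858585, from 5.64 through 6.04 to 6.44 against 6.63 through 6.85 to 7.40, a difference of 0.84. All 22 regions of that complex were more open per kb than the median region in both groups.

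**Figure D5:**
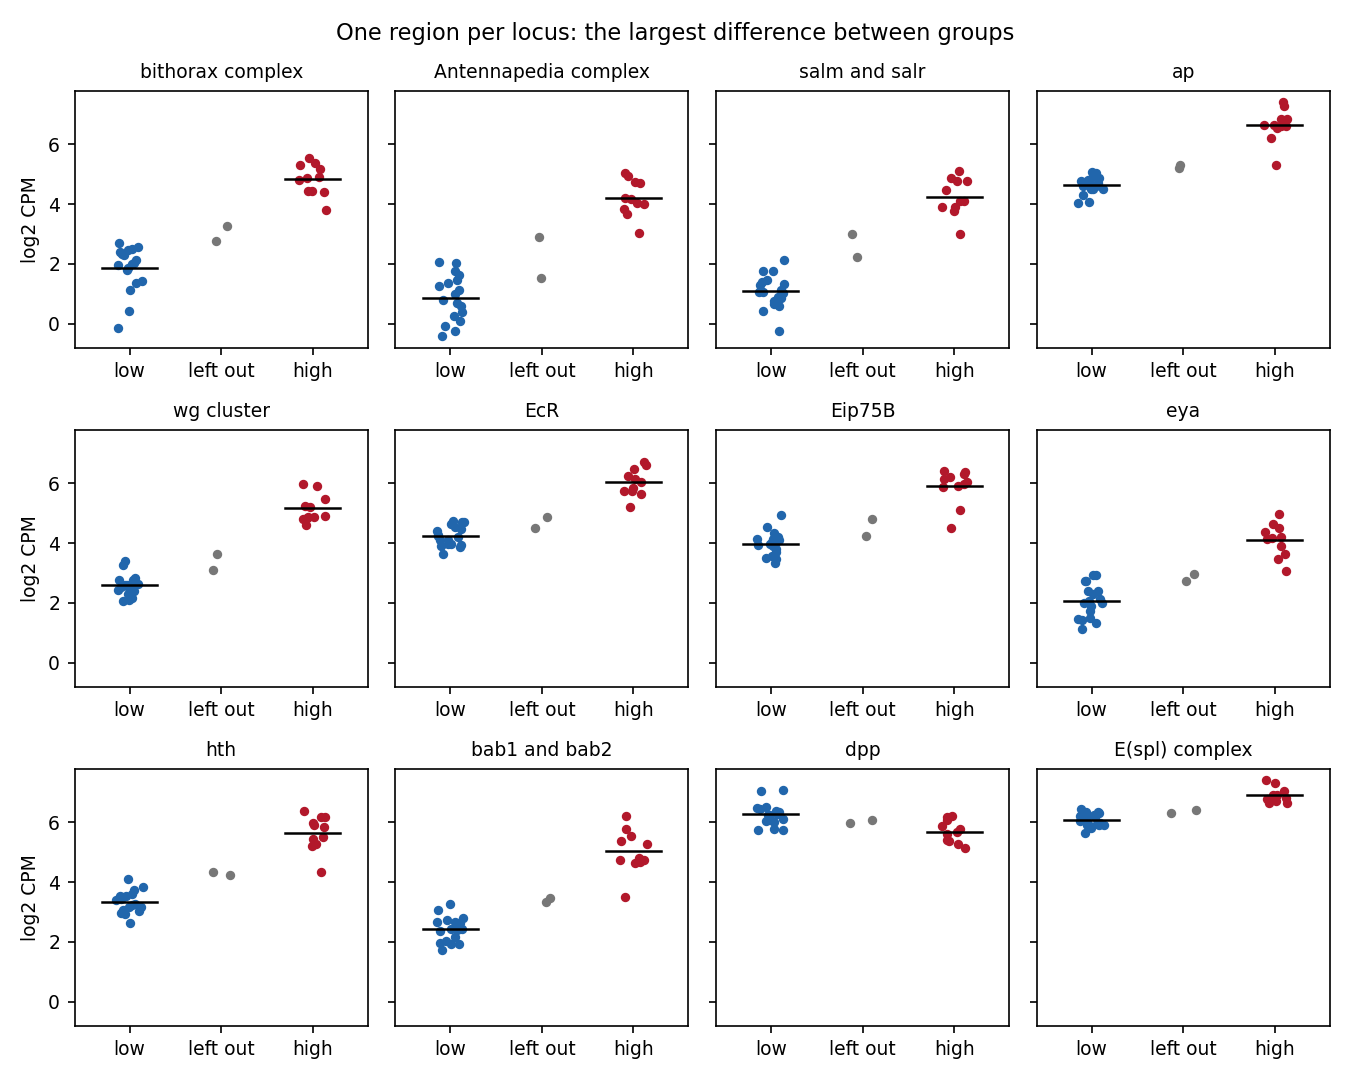
Log2 CPM of 1 region in each of 12 loci, the one with the largest difference in either direction, in the low (18 libraries), left-out (2) and high (11) libraries, with bars at the means of the low and high groups. At the bithorax complex the groups are separate, from -0.14 to 2.71 and from 3.81 to 5.56, while at dpp they overlap and the high mean is lower by 0.58.

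Loci of genes that mark cell types, the epithelium among them, were few. Each list rests on 1 or 2 loci with few regions, beside a background of 18%. The neuronal gene elav, which is also active in the photoreceptors of the disc, had 3 higher regions of 10, with X from 417991 to 418834 at 3.77 to 5.10 in the low group and 5.73 to 6.91 in the high group. Muscle precursor genes had 2 of 13 at Mef2 and 3 of 9 at zfh1, where 3R from 26584352 to 26585076 ran from 2.90 through 4.17 to 6.09 against 5.48 through 6.54 to 7.33. The FGF receptor gene btl of the trachea had 2 of 4, and the epithelial gene grh none of 20, with a largest difference of -0.73. The blood cell gene Hml had 1 of 7, with a difference of 1.07, and 0 with TMM or median-ratio factors, or without replicate 1 of DGRP_25208 or the library of DGRP_28153. Open chromatin at these loci does not name a cell type. Whether other cells in the dissected tissue have a part in the result was not tested.

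Regions that were lower in the high group were few by either rule. The 5 in which every high library lay below every low one were all among strongly counted regions, with mean counts of 760 to 1838 in the low group, and differed by only -0.52 to -0.41. The largest was 3R from 17409023 to 17409955, at 6.65 to 7.19 against 5.85 to 6.61. In the 11 regions that were 2-fold lower the groups overlapped in every case, and mean counts in the low group ran from 19.4 to 610. The most negative was 2L from 22462894 to 22463114, at -1.38, where levels ran from -1.68 to 3.33 in the low group and from -1.68 to 3.05 in the high group. In the mean within the 5 lines with a library in each group it was higher, by 0.24, and 2 more of the 11 also changed sign. It was named after its values were seen.

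Libraries of the same inbred line could be compared across the groups. Of the 8 lines with 2 libraries, 5 had 1 library in each group, and both libraries of DGRP_28275 (6.31 and 6.71), DGRP_28123 (1.78 and 3.42) and DGRP_28262 (3.31 and 3.08) fell in the same group. In the 5 split lines the marker differed by 6.23 in DGRP_25208, 4.57 in DGRP_28260, 4.65 in DGRP_28265, 4.76 in DGRP_29652 and 4.55 in DGRP_55031. The high library had no suffix in 4 of these lines and carried it in DGRP_28260. From 16.4% of regions in DGRP_28260 to 24.6% in DGRP_25208 were at least 2-fold higher in the high library, and from 2.28% to 6.84% were lower.

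Most regions that were higher in the other lines were also higher within these 5 lines. Between the 6 high and 13 low libraries of the other lines, 4733 regions were at least 2-fold higher (15.4%). Of these, 4643 were also at least 2-fold higher in the mean over the 5 lines (98.1%, background 21.1%), and 4523 were higher in each of the 5 lines (95.6%, background 25.2%). The median of their mean differences was 2.02. Of the 26040 regions that were not higher in the other lines, 1858 were higher within the 5 lines (7.14%). The 2 comparisons share no library and no line. The same marker sorts both, though, and it was picked because it follows the main component of all these libraries. Much of this overlap was therefore set by the sorting, and the values are a description with no independent test.

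The regions named for the 38 loci were picked by a difference that includes these 10 libraries, in groups set by the marker, so their values within lines are a description only. Of the 38, 30 were higher in the high library of every split line, beside 25.2% of all other regions. Of the rest, 6 were lower in every line and 2 differed between lines. The share of all regions lower in every line was not computed. The bithorax region named above was higher in the high library of 5 of 5 lines, by 3.70 ± 0.74 (SD), the Antennapedia region by 4.17 ± 0.46 and the salm and salr region by 3.73 ± 0.75. Those of ap (2.49 ± 0.41), EcR (2.22 ± 0.60), Eip75B (2.28 ± 0.09), eya (2.59 ± 0.71) and hth (2.95 ± 0.41) were likewise higher in 5 of 5. The named regions of dpp, hh, ato and grh were lower in 5 of 5 lines, by a mean of -0.88, -0.43, -0.998 and -0.72. The achaete-scute region was higher in 3 of 5 lines, from -0.34 to 1.29, and the vg region in 1 of 5, from -1.14 to 0.51.

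Split by suffix, 6096 regions were higher and 50 lower among libraries without it (8 high, 7 low), and 4398 were higher and 176 lower among those with it (3 high, 11 low).

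High libraries differed among themselves in how far they went. The 5542 higher regions took 7.56% to 15.9% of a library's counts in the high group, with a median of 10.1%, and 2.26% to 4.38% in the low group. If the low mean is set at 0% and the high mean at 100% for each of these regions, the median place of a high library ran from 71.3% in DGRP_25187 to 137% in DGRP_29651. Low libraries ran from -29.2% in replicate 2 of DGRP_25208 to 33.8% in DGRP_25193. Of the libraries left out, DGRP_28224 lay at 28.5% and DGRP_25186 at 54.9%. DGRP_28224 was thus within the range of the low libraries, and DGRP_25186 was outside both ranges.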

How the data were processed

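The deposited table holds raw counts of ATAC-seq reads per region in 1 merged set of 30774 regions, as the file's own name says, with 1 column for each of 31 DGRP libraries. Its coordinates are on dm3. The tools Bowtie2, MACS2, featureCounts and DESeq2 are named, without versions, per the submitters' processing notes. Nothing here says how duplicate reads, reads with several matches or the Tn5 offset were handled.

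Levels are log2 CPM, the count scaled to the library total over all regions, with a prior count of 2. Libraries were grouped by the level of the marker region, above 5 or below 4. The groups come from a measured level, and 5 lines have a library in each group, so the line pairs these libraries and differences within lines are given beside the pooled ones. For each of the other 30773 regions the difference is the mean of the high group minus that of the low group, and a fold of 2 was the threshold for counts. No p-value is given for these differences, because the marker follows the main component of the same counts. Library totals were compared by a permutation test with 100000 resamples and the suffix by Fisher's exact test. Both ignore the pairing of libraries by line. The calculation of the difference was also run on simulated counts with known folds in a small part of the regions. That run does not cover a change over as many regions as found here.

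The loci and lists were chosen with earlier results of these data known. Locus windows on dm3 were set by hand from general knowledge of the fly map, with no annotation of that build, so no exon or intron is given. The spacing of 64 genes in the RefSeq table of Release 6, all found there by symbol, served as a check. The shift between the builds was taken on each arm from the windows themselves. Of 44 windows, 6 missed their gene and were dropped, namely Optix, twi, srp, repo, trh and shg, and 38 were used. The achaete-scute window was kept with 3 of its 4 genes inside. A window tells where a region lies and not which gene it acts on. Regions named in the text are, for each locus, the one with the largest difference in either direction, then the 10 most higher and 5 most lower regions among those whose groups do not overlap, the 5 most like the marker and those within 50 kb of it. The counts and lists that fall outside this rule are said to do so. Scaling factors and fitted folds came from edgeR 4.0.16 and DESeq2 1.42.0 in R 4.3.3, the rest from Python 3.11.15 with numpy 2.4.6, pandas 2.3.3 and scipy 1.17.1. Alternatives were TMM and median-ratio scaling, a mean count of 50 or more, a prior count of 0.5, other group limits, medians, thinning, differences within lines or within suffix, and each library left out.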

Additional observations from a re-analysis of the deposited data

Results flagged for a closer look

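In 43 sets of 5 values, each from the 5 split lines, 4 held a value whose gap to the nearest of the others was large against the range of the set (above the 95% limit of Dixon's test). The sets were the differences at the 38 named regions and summaries of each line. These summaries were the marker difference, the shares of regions higher and lower, and medians over regions. Chance sets apart about 1 in 20 independent sets. These sets are not independent, since they share the same 5 lines and include the marker and regions chosen for their differences, so the number of such sets shows nothing by itself. Line DGRP_25208 had the largest difference at the marker, 6.23, against 4.55 to 4.76 in the other lines, and its high library is the shallowest of all, with 1110755 counts. The same line stood apart at the bithorax region on 3R from 12609668 to 12610168, with 5.005, and at the Dll region on 2R from 20715511 to 20716327, with -1.64. Line DGRP_55031 stood apart at the eya region on 2L from 6540927 to 6541297, with 3.82.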

How the results depend on the processing

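The groups rest on 1 region, no difference between them has a p-value, and the locus windows were set by hand. The count of 5542 higher regions lay between 4410 (every library thinned to the smallest total) and 6501 (within 5 lines) under the alternatives run on libraries of both kinds of title, with 2 exceptions. Among libraries with the suffix alone it was 4398. It was 2429 with a mean count of 50 or more, which leaves 21664 regions (11.2% higher), and 1121 at a threshold of 2 log2 units. Leaving out single libraries gave 5350 to 5706. The 11 lower regions became 28 with TMM, 23 with median-ratio factors, 33 with a prior count of 0.5, 37 with medians, 145 with the edgeR fitted fold, 101 within 5 lines, 55 without the 5 split lines (an alternative chosen after seeing the data) and 0 at 2 log2 units. Leaving out single libraries gave 8 to 22, with 22 without DGRP_25187, 18 without replicate 2 of DGRP_28260 and 19 without replicate 1 of DGRP_55031. With a mean count of 50 or more the higher regions numbered 20 of 137 for Hox, 14 of 189 for wing and limb, 27 of 178 for antenna and head (11.2% of all regions), 3 for muscle precursors, 0 for blood cells and 0 for tracheal cells. Within 5 lines they were 26 of 180 for ecdysone and 1 of 77 for Notch and proneural loci (21.1% of all regions), and without the 5 split lines 9 of 180 for ecdysone (15.4% of all). The 1 higher region at Hml became 0 with TMM, median-ratio factors or the mean within each suffix, and without the 5 split lines. The count was also 0 without replicate 1 of DGRP_25208 or the library of DGRP_28153 (0 to 1). The mean of the differences within each suffix gave 5358 higher and 15 lower. Within lines, leaving out a line gave 6284 to 6832. The difference in library totals ran from -0.258 to 0.0664 without single libraries and changed sign without replicate 1 of DGRP_25208 (permutation p from 0.382 to 0.777). For the suffix, the difference in its share ran from -41.1 to -31.1 percentage points (Fisher's exact p from 0.0546 to 0.236). Of 2629 further values, 2592 stayed alike, 34 moved and 3 reversed. They are the differences at 65 single regions and the count of lower regions in the listed loci, under the alternatives. A difference moved if it changed by at least the spread between libraries, and the count moved by its ratio. Only regions called at 2-fold could reverse. The 3 reversals were all within 5 lines, at 2L from 22462894 (0.24), 2L from 22460183 (0.33) and 3L from 15290369 (0.70). The cause of these changes was not tested. Low counts limit the levels near closed regions, where the median higher region had 24.6 reads per low library.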
